A study of Mus musculus with 32 samples.

Results

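The transcriptomes of mouse embryonic stem (mES) cells at 16 and 24 h after the start of a pulse of *Gata6* were compared, an interval that runs from 4 to 12 h after doxycycline (Dox) was withdrawn. The comparison takes the 4 samples labelled 24 h and the 4 labelled 16 h out of 32 samples in the series, and it was made over every gene that passed a filter on low values, 15227 of the 54233 genes listed. The series holds poly(A) RNA-seq of 8 time points, from 0 to 96 h, with 4 replicates each. All samples are KH2 mES cells, labelled with strain C57BL/6 and the transgene TRE:GATA6-DSREd2, a single-copy, Dox-responsive construct that makes FLAG-tagged GATA6 and the red fluorescent protein DsRed2. The cells were kept in medium with leukaemia inhibitory factor (LIF) and inhibitors of MEK (PD0325901) and of GSK3 (CHIR), then moved to serum and LIF with Dox at 1 µg/ml for 12 h, and then to serum and LIF without Dox. Both groups therefore carry the same transgene, had the same Dox pulse and grew in the same medium. They differ in the time since the pulse, and equally in the time since the inhibitors were removed and in the time in serum. These cannot be told apart here. Both are 1 engineered line and whole cultures.

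In the blastocyst, the inner cell mass gives rise to the epiblast (Epi), from which ES cells derive, and to the primitive endoderm (PrE). GATA6 starts a cascade in which GATA4, SOX17 and SOX7 follow, and PrE cells then lay down a laminin and collagen IV basement membrane and form visceral and parietal endoderm. Visceral endoderm takes up maternal proteins through an apical receptor complex of cubilin, amnionless and the adaptor DAB2, and it secretes plasma proteins much as the later liver does, with HNF4A among its regulators. FGF, acting through ERK, favours PrE, and NANOG, SOX2 and other pluripotency factors favour Epi.

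Values below are normalized counts, that is, reads per gene divided by the study's own size factor for each sample, listed for replicates 1 to 4. Log2 differences were taken between group means of log2(normalized count + 1), are positive where 24 h was higher, and carry the standard error (SE) and the Benjamini-Hochberg adjusted p of limma. A gene was called at an adjusted p below 0.1, and a stricter call, the threshold of the study, also needed a 4-fold difference. Reads on genes ranged from 8853865 to 11586928 at 16 h and from 3844937 to 12301732 at 24 h, where replicate 3 was the shallowest. Replicates 1 and 2 stood apart from 3 and 4 at both times. Within these sets, pairs of replicates differed with a chi-square per degree of freedom of 1.45 to 2.21, and across the sets with one of 7.11 to 11.4. The study states that its replicates were done independently. What separates the sets, and whether each sample was a culture of its own, is not given in the sources used here. The p-values rest on the spread between samples within time points, pooled over all 32 samples of the series. Except where a replicate block is named, that spread includes the difference between the sets. In whole cultures, fewer cells of a type and less RNA per cell cannot be told apart.

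In the 8 h between the samples, 2031 genes rose, 13.3% of those tested, and 2261 fell, 14.8%. Counts of list members below are to be read beside these shares. Most differences were small. Of the genes that rose, 1627 changed less than 2-fold, 324 changed 2- to 4-fold and 80 changed at least 4-fold, which is 0.525% of the genes tested. Of the genes that fell, 1542 changed less than 2-fold, 608 changed 2- to 4-fold and 111 changed at least 4-fold, 0.729%. The median log2 difference over all genes was -0.01. The groups of 4 did not overlap for 78 of the 80 and 108 of the 111 genes at 4-fold. Without the 4-fold threshold, 1615 of the 2031 risers and 1712 of the 2261 fallers did not overlap. The share over all genes tested was not counted. Called genes were picked on these same samples, so these counts are not a result about them. The same holds where single genes below did not overlap. All genes at 4-fold moved in the same direction within replicates 1 and 2 and within replicates 3 and 4. They were picked on these same samples, so the separation and the shared direction are not separate support. Many of these genes were low on one side of the interval. In every 16 h sample, 14 of the 80 had 3 reads or fewer, and in every 24 h sample 27 of the 111 did.

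**Figure D1:**
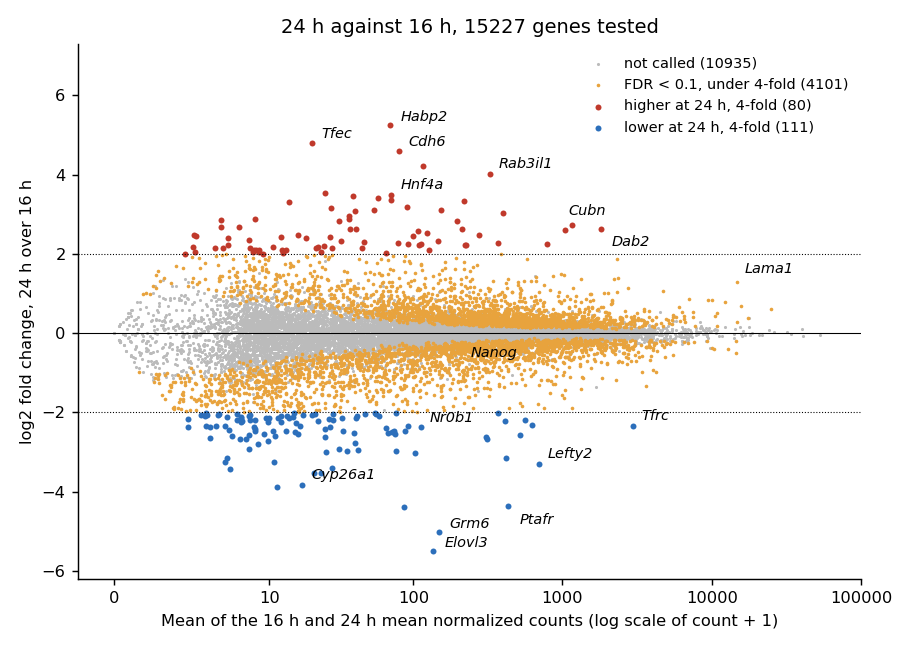
Log2 difference (24 h minus 16 h, log2(normalized count + 1)) against the mean normalized count on a log10 scale, 1 point per gene tested (n = 4 samples per time). Grey points were not called (10935 genes), 4101 were called at under 4-fold, and the coloured points are the 80 genes higher and 111 genes lower at 4-fold.

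The means of *Gata6*, *Gata4*, *Sox17*, *Sox7* and *Foxa2*, at the top of the PrE cascade, differed by less than 2-fold, whereas *Hnf4a*, a nuclear receptor of visceral endoderm and liver, rose 12.6-fold. Endogenous *Gata6* was at 852, 811, 948 and 998 at 16 h and at 864, 891, 877 and 1019 at 24 h. The samples of the 2 times were interleaved (log2 difference 0.02, SE 0.15, adjusted p = 0.95 by limma). The transgene, counted as a gene of its own, was at 68.7, 72.5, 76.5 and 44.9 at 16 h and at 30.03, 21.9, 85.3 and 66.1 at 24 h, with overlap (log2 difference -0.54, SE 0.31, adjusted p = 0.23). Its mean had been 504 at 8 h, during the pulse. The transgene holds the coding sequence alone, and the methods of the study estimate its share from reads on the coding and untranslated parts of the last exon. Whether the deposited values of the transgene were made in this way is not stated there.

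*Gata4* was the one factor of the *Gata4*, *Sox17* and *Sox7* group that was called higher. Its counts were 1407, 1443, 1628 and 1626 at 16 h and 2254, 2422, 3239 and 3215 at 24 h. Every 24 h sample was above every 16 h sample (log2 difference 0.85, SE 0.30, adjusted p = 0.043), but the call was lost when 24 h replicate 3 or 4 was left out (0.77 and adjusted p = 0.11 in both cases). These fits had no term for the replicate sets. With a term for replicate number (replicate block) and all samples, the adjusted p of limma was 0.0022. *Sox17* (log2 difference 0.38, SE 0.29, adjusted p = 0.39), *Sox7* (0.69, SE 0.35, adjusted p = 0.17) and *Foxa2* (-0.14, SE 0.32, adjusted p = 0.8) were not called. Of the 20 PrE transcription factors tested, 8 rose and 2 fell, and the median log2 difference was 0.47 beside -0.01 over all genes. The call of the homeobox gene *Hhex* (0.58, adjusted p = 0.051) was lost without 16 h replicate 1 or 2 or 24 h replicate 3 or 4, with 0.40 to 0.56. With the replicate block and all samples, its adjusted p of limma was 0.011. The other risers included the Krüppel-like factor *Klf6* (0.56), the co-activator *Cited1* (1.06) and the forkhead gene *Foxq1* (1.10), and the fallers were *Prdm1* (-1.07) and *Zfpm1*, the GATA cofactor FOG1 (-0.98).

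*Hnf4a* (chr2:163506808-163572910, + strand, GRCm38) was at 7.83, 8.96, 14.6 and 10.4 at 16 h and at 92.5, 90.1, 173 and 172 at 24 h. All 4 later samples were above all 4 earlier ones, with replicates 3 and 4 higher than 1 and 2 at 24 h (12.6-fold, SE 0.38 on the log2 scale, adjusted p = 9e-08). The gene was close to the floor at 8 h, with a mean of 1.61, and at 800 at 48 h. It was the one PrE factor of the list to pass 4-fold.

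**Figure D2:**
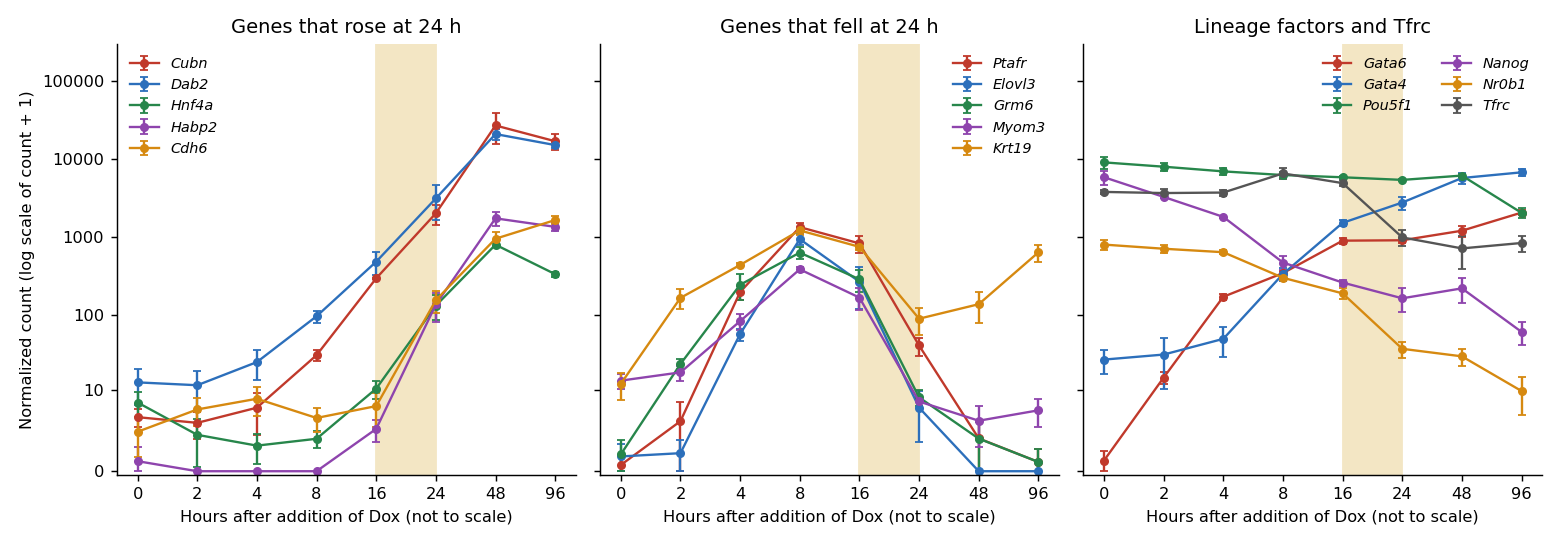
Mean normalized count (log scale of count + 1) at the 8 time points, with SD bars (n = 4, lower bars cut at 0), for genes that rose, for genes that fell after a peak and for lineage factors with *Tfrc*. The time axis is not to scale, and the shaded band marks 16 to 24 h. *Gata6* and *Pou5f1* change little across it, *Cubn*, *Dab2*, *Hnf4a*, *Habp2* and *Cdh6* climb, and *Elovl3*, *Grm6*, *Myom3* and *Ptafr* drop.

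The promoters of genes that rose 4-fold were searched for the letters of GATA, HNF1, SOX and FOX sites on both strands, because factors of these families act in endoderm. RefSeq promoters of GRCm38.p6, 300 bases with 50 after the start, were found for 62 of the 80 genes (93 promoters) and for 77 of the 111 genes that fell 4-fold (104 promoters). An HNF1 match with up to 2 mismatches was present in 18.3% of the promoters of risers, 2.88% of those of fallers and 2.79% of 13653 promoters of all genes tested. GATA sites were searched as AGATAA and, with a different first letter, as TGATAA, and the shares were 21.5%, 13.5% and 10.3%. For SOX (ACAAAG or ACAATG) they were 25.8%, 26.9% and 19.9%, and for FOX (TGTTTAC) 1.08%, 2.88% and 2.67%. Promoters of risers were also richer in A and T, with a median of 46.7% beside 39.3% over all genes. Among promoters of at least 50% A and T, HNF1 matches were in 11 of 33 of the risers (33.3%), in 0 of 23 of the fallers and in 10.1% of 1956 of all genes. In that stratum, GATA matches were in 42.4%, 17.4% and 28%. SOX matches were in 33.3%, 34.8% and 37%, so risers were not above all genes there, and FOX matches in 3.03%, 4.35% and 5.73%. These shares are descriptions of letters, and the part of base composition in them was not tested further.

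Stretches around the matches are shown for 6 genes of the risers, chosen after their values were seen. They show what the letters look like in *Hnf4a* itself, in genes of uptake and secretion and in the transcription factor gene *Tfec*. Each is read 5′ to 3′ on the strand of its gene, and capitals mark the matching letters, on either strand. In *Habp2* (chr19:56287816-56287888, + strand), *Rab3il1* (chr19:10014927-10014999, + strand, in 1 of its 5 promoters), *Cubn* (chr2:13492024-13492096, - strand) and *Fgb* (chr3:83049857-83049929, - strand) the capitals are an HNF1 match. In *Hnf4a* (chr2:163506726-163506840, + strand, in 1 of its 2 promoters) they are an HNF1 match and then a GATA match, and in *Tfec* (chr6:16898487-16898552, - strand) a GATA match.
Hnf4a: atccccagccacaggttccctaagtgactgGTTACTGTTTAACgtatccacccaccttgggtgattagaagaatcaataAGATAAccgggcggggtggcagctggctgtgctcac
Habp2: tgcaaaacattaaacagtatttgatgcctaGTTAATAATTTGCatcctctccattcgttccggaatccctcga
Rab3il1: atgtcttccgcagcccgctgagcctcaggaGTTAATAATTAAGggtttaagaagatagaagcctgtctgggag
Cubn: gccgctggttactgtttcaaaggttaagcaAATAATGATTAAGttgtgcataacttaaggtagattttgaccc
Fgb: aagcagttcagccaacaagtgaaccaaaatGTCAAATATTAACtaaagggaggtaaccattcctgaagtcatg
Tfec: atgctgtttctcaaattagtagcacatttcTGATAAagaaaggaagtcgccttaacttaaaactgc
The first match lay 66 bases before the start in *Habp2*, 90 in *Rab3il1*, 190 in *Cubn*, 36 in *Fgb* and 81 in *Tfec*. The 15 risers with an HNF1 match also included *Akr1c12*, *Klb*, *Hkdc1*, *Slc7a9*, *Il18* and *Dnah11*.

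Several genes for apical protein uptake rose, with the receptor cubilin and its adaptor at the largest log2 differences. *Cubn* (chr2:13276338-13491813, - strand) was at 295, 306, 290 and 294 at 16 h and at 1414, 1634, 2577 and 2474 at 24 h. The 16 h samples were nearly equal and all 24 h samples were above them (6.83-fold, log2 difference 2.72, SE 0.35, adjusted p = 1.3e-06). *Cubn* was on the way from a mean of 29.7 at 8 h to 27062 at 48 h. *Dab2* (chr15:6299788-6440712, + strand) rose from 351, 348, 636 and 602 to 1829, 1887, 4522 and 4336. Here replicates 3 and 4 were higher than 1 and 2 at both times, and the times did not overlap (6.49-fold, log2 difference 2.62, SE 0.37, adjusted p = 5.8e-06).

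Of 16 endocytic receptor genes tested, 6 rose and 2 fell, with a median of 0.18. Rises past 4-fold were also seen for *Nostrin*, an F-BAR protein of membrane traffic, and for *Pdzk1*, a scaffold of apical transporters. *Nostrin* was at 188, 201, 409 and 405 at 16 h and at 1348, 1220, 2205 and 2405 at 24 h, with no overlap (log2 difference 2.61, SE 0.33, adjusted p = 1.1e-06). *Pdzk1* was at 5.22, 6.52, 4.66 and 4.32 at 16 h and at 31.2, 28.8, 34.5 and 31.0 at 24 h, again with no overlap (2.40, SE 0.55, adjusted p = 0.0018). *Amn*, the partner of cubilin, rose from a mean of 76.5 to 224 (2.92-fold, adjusted p = 0.007), and *Lrpap1*, a chaperone of LDL receptor family proteins, rose by 0.54. The receptor megalin, *Lrp2*, was not called (0.17, adjusted p = 0.84). The fallers were *Clu*, a secreted chaperone (-1.28), and *Cltb*, a clathrin light chain (-0.40).

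Secreted proteins of visceral endoderm had the largest rise of any gene at a mean of 100 or more. Of 23 genes of this list, 11 passed the filter, and of these 7 rose and 2 fell, with a median of 0.76. The risers counted include *Mttp* and *Amot*, whose products are not themselves secreted. The genes that were not tested, among them *Afp*, *Apoa1*, *Apob* and *Alb*, had at most 7 reads in any sample of 16 or 24 h. *Habp2* (chr19:56287137-56320822, + strand), a secreted serine protease, was at 1.74, 1.63, 3.99 and 2.59 at 16 h and at 90.1, 88.2, 197 and 169.6 at 24 h. No 16 h sample came near a 24 h sample (log2 difference 5.26, SE 0.27, adjusted p = 2.1e-14). The 16 h level rests on 13 reads in all, against 521 at 24 h, a ratio per scaled read of 48.7 with an exact 95% interval of 28.2 to 92.0 that covers counting error only. *Spink1*, a secreted trypsin inhibitor, was at 15.7, 18.7, 12.0 and 3.45 and then at 215, 199, 219 and 244. Its 24 h samples were close to each other and all far above 16 h (17.6-fold, log2 difference 4.23, SE 0.51, adjusted p = 4.6e-07).

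*Fgb*, the fibrinogen beta chain, had no read in any 16 h sample and 3.60, 3.13, 4.06 and 8.97 normalized counts at 24 h, which is at least 2.05-fold higher when 16 h is set to a floor of 3 reads per library. The hedgehog ligand *Ihh* (1.88), the apolipoprotein *Apom* (0.99), the lipid transfer protein *Mttp* (0.76) and the angiomotin gene *Amot* (0.51) rose too. The apolipoprotein gene *Apoa2* fell from 53.0, 54.6, 49.2 and 51.8 to 18.02, 28.2, 24.4 and 11.4 without overlap (-1.38, adjusted p = 0.0001), and the retinol carrier *Rbp4* fell by 1.73 on the log2 scale. Transthyretin, *Ttr*, an abundant product of later visceral endoderm, had no read at 16 h and a mean of 0.508 at 24 h, and was not called (0.40, adjusted p = 0.39). Of 13 genes of parietal endoderm tested, 3 rose (5 with the replicate block) and 2 fell, with a median of 0.35. These are 23.1% and 15.4%, beside 13.3% and 14.8% of all genes.

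*Pth1r*, the receptor for parathyroid hormone-related protein, which drives parietal differentiation, was at 11.3, 14.7, 19.3 and 20.7 at 16 h and at 96.1, 113, 227 and 227 at 24 h. The times did not overlap (10.1-fold, log2 difference 3.18, SE 0.34, adjusted p = 4.4e-08), and the mean went on to 3422 at 48 h and 6929 at 96 h. *Tfpi*, an inhibitor of coagulation, rose by 1.38 on the log2 scale, whereas *Krt19* and thrombomodulin, *Thbd* (-1.05), fell.

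Other genes among the 12 largest rises came from several families. *Cdh6*, a classical cadherin, was at 9.57, 4.89, 2.00 and 6.90 at 16 h and at 110.5, 113, 193 and 204 at 24 h, a 26.6-fold rise with no overlap (log2 difference 4.60, SE 0.41, adjusted p = 1.4e-09). It was the one riser among 15 integrins and cadherins tested, and the integrin *Itga3* was the one faller (-0.55, with overlap), with a median of -0.15. The replicate block gave 3 risers and 2 fallers. The call of *Itga3* was lost without 16 h replicate 3 or 4 or 24 h replicate 1 or 2 (-0.50 to -0.47). With the block and all samples, its adjusted p of limma was 0.0015. *Rab3il1*, an exchange factor for RAB GTPases, went from 22.6, 23.6, 55.9 and 52.7 to 471, 461, 776 and 747 (15.9-fold, log2 difference 4.03, SE 0.34, adjusted p = 6.6e-10). In both sets the rise was of like size, 4.27 in replicates 1 and 2 and 3.79 in replicates 3 and 4.

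*Cpm*, a membrane carboxypeptidase, was at 11.3, 7.33, 13.3 and 14.7 and then at 96.1, 101.4, 166.5 and 152.5 (11.1-fold, adjusted p = 2.3e-09). *Lgals9*, a galectin, was at 27.8, 30.1, 65.2 and 39.7 and then at 354, 362, 402 and 473 (9.77-fold, adjusted p = 2.2e-10). *Srgn*, the proteoglycan serglycin, was at 47.8, 48.1, 134 and 151 and then at 509, 518, 932 and 882 (7.46-fold, adjusted p = 1.5e-04). None of these genes overlapped between the times. The scaffold *Nedd9* (9.02-fold) and the X-linked mRNA export family member *Nxf7* (log2 difference 2.83) completed the 12 largest rises, together with the aldo-keto reductase *Akr1c12* (10.7-fold), whose close paralog *Akr1c19* also rose (log2 difference 3.17). Reads of such paralogs could be split between them, so each value is uncertain.

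*Tfec*, a basic helix-loop-helix factor of the MITF family, lay below the mean of 100 but had the second largest log2 rise of the 80. It had reads in 1 of the 4 samples at 16 h, with values of 0, 0, 1.33 and 0, and was at 20.4, 16.9, 79.2 and 44.0 at 24 h. All 4 later samples were above these (log2 difference 4.79, SE 0.36, adjusted p = 4.3e-11). The level rests on 2 reads against 137, a ratio of 83.2 with an exact 95% interval of 22.6 to 694.

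**Figure D3:**
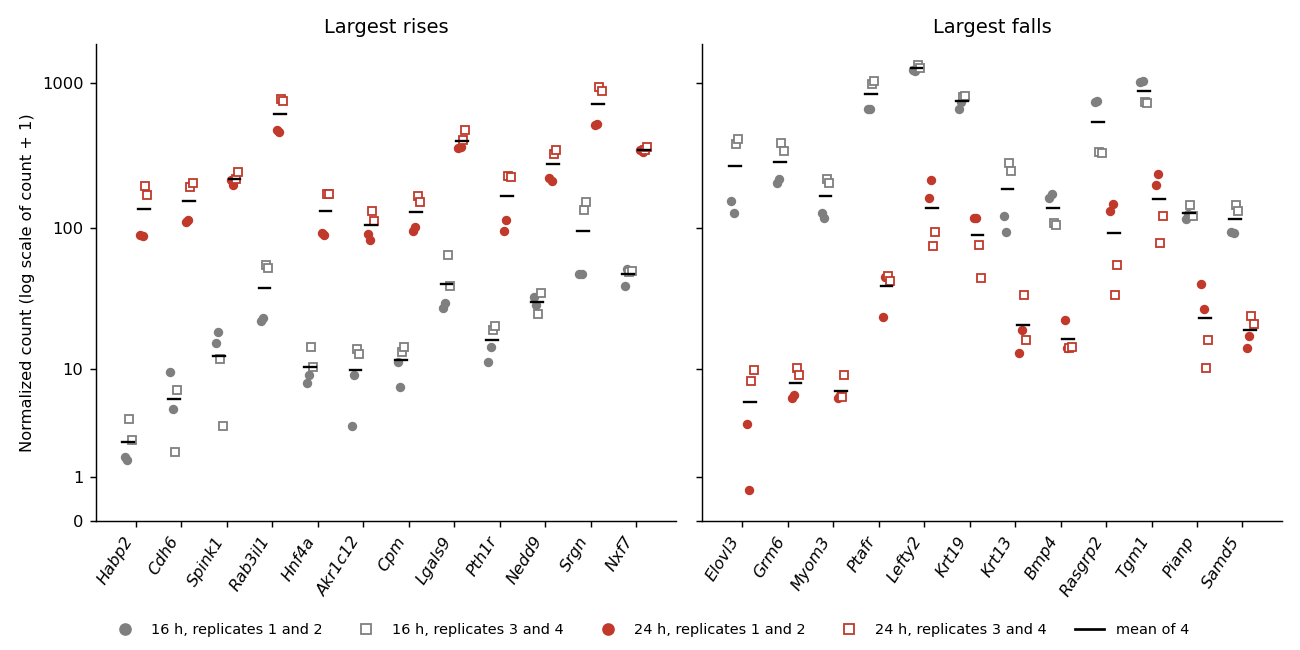
Normalized count (log scale of count + 1) in each sample at 16 and 24 h for 12 risers and 12 fallers, the largest log2 differences of non-overlapping genes past 4-fold whose higher mean was 100 or more. Circles are replicates 1 and 2, squares are replicates 3 and 4, and bars are means of 4. In every gene the samples of the 2 times are separate.

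Genes of the basement membrane were remodelled in both directions. Of 25 tested, 9 rose and 7 fell, with a median of 0.34. The laminin chains of the early embryonic membrane rose. *Lama1* went from 6868, 7157, 9613 and 9210 to 12292, 14807, 30266 and 28282, with a larger rise in replicates 3 and 4 (2.61-fold, log2 difference 1.29, SE 0.22, adjusted p = 8e-05). *Lamb1* rose by 0.69 and *Lamc1* by 0.60 on the log2 scale. The chains *Lama4* (-1.11), *Lama3* (-0.94) and *Lama5* (-0.72) fell.

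*Col4a1* rose from 5515, 6237, 7434 and 7482 to 9392, 10181, 15054 and 14094 without overlap (0.85, SE 0.19, adjusted p = 0.0012). Enzymes that hydroxylate collagen in the endoplasmic reticulum had larger log2 differences than the collagen chain itself, with *P3h2* at 2.16 (SE 0.46), *P4ha1* at 1.87 and *Plod2* at 1.40, and the collagen chaperone *Serpinh1* rose by 0.85. The differences between these genes were not tested. *P3h2* was at 6.09, 6.52, 10.7 and 13.8 at 16 h and at 27.6, 28.2, 63.0 and 67.7 at 24 h.

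The largest falls of all were in genes that had been induced during the pulse, although *Bmp4*, *Rasgrp2* and *Pianp* among the 12 largest falls had been at like means at 0 and 8 h. *Elovl3*, a fatty acid elongase (chr19:46131897-46135694, + strand), was at 153, 127, 381 and 410 at 16 h and at 3.60, 0.626, 8.12 and 9.79 at 24 h. Every later sample was below every earlier one by more than 10-fold (48.4-fold lower in the means, log2 difference -5.50, SE 0.44, adjusted p = 2.2e-10). Its mean was 0.547 at 0 h and 944 at 8 h, and no read was seen at 48 h. *Grm6*, a metabotropic glutamate receptor (chr11:50850685-50866208, + strand), was at 206, 220, 386 and 340 and then at 6.01, 6.26, 10.2 and 8.97 (36.7-fold lower, log2 difference -5.01, SE 0.38, adjusted p = 5.1e-11). It had risen from 0.642 at 0 h to 633 at 8 h.

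*Myom3*, a sarcomere protein, was at 127, 118, 218 and 206 and then at 6.01, 6.26, 6.09 and 8.97 (24.5-fold lower, adjusted p = 5.6e-10). *Ptafr*, the receptor for platelet-activating factor, was at 659, 661, 985 and 1023 and then at 24.0, 45.7, 46.7 and 43.2 (20.9-fold lower, log2 difference -4.36, SE 0.42, adjusted p = 6.7e-09). At 8 h these genes had means of 386 and 1346, so that both were already past their highest time point at 16 h. *Samd5* fell 5.95-fold after a mean of 314 at 8 h. The other members of the 12 largest falls were *Rasgrp2*, an exchange factor for RAP and RAS GTPases, which fell 5.85-fold, *Pianp*, which fell 5.34-fold, and the genes *Krt19*, *Krt13*, *Tgm1*, *Lefty2* and *Bmp4*, described with their families.

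Of the keratins named here, *Krt19*, *Krt13* and *Krt8* fell, and *Krt18* (-0.16, adjusted p = 0.5) and *Krt7* (1.81, adjusted p = 0.11) were not called. *Krt19* went from 665, 736, 795 and 810 to 118, 117, 77.2 and 44.9 (8.42-fold lower, log2 difference -3.16, SE 0.28, adjusted p = 1.5e-09), and it was at 1222 at 8 h and again at 638 at 96 h. *Krt13* went from 121, 93.7, 280 and 247 to 13.2, 19.4, 34.5 and 16.3 (8.88-fold lower, adjusted p = 1.2e-07). Of 19 keratin and tight junction genes tested, 2 rose and 6 fell, with a median of -0.25. *Krt8* (-0.69), the claudin *Cldn4* (-1.27) and *Marveld3* (-1.86) fell, and the junction scaffold cingulin, *Cgn*, rose from a mean of 69.3 ± 17.6 (SD, n = 4) to 150 ± 37.3 (1.10, adjusted p = 5.3e-04). *Tgm1*, a transglutaminase of epithelia, fell 5.51-fold. Of 10 EMT transcription factors tested, none rose (1 with the replicate block) and 3 fell, among them *Twist1* (-0.80) and *Zeb1* (-0.76), and the median was 0.05.

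Genes of the pluripotent state fell further, whereas *Pou5f1* was not called. Of 21 naive pluripotency factors tested, 17 fell and 1, *Fbxo15* (0.55), rose, with a median of -0.59. *Nr0b1*, the nuclear receptor DAX1, fell most, from 168, 158, 210 and 222 to 28.8, 46.3, 28.4 and 40.8, with no overlap (5.25-fold, log2 difference -2.38, SE 0.24, adjusted p = 1.3e-08). *Dppa3* (-1.94), *Prdm14* (-1.85), *Klf2* (-1.59), *Nr5a2* (-1.35) and *Esrrb* (-0.91) fell, and *Klf4* fell least of the KLF factors (-0.38), with a call that was lost without 24 h replicate 1. *Nanog* was at 265, 232, 258 and 289 at 16 h and at 204, 219, 116 and 116 at 24 h. The times did not overlap, but the drop was small in replicates 1 and 2 (-0.23) and larger in replicates 3 and 4 (-1.23), with -0.73 over all 4 (SE 0.22, adjusted p = 0.018).

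*Pou5f1*, which encodes OCT4, was at 5602, 5970, 5861 and 6019 and then at 5666, 5362, 5459 and 5228. The times overlapped (log2 difference -0.11, SE 0.10, adjusted p = 0.48). *Sox2* fell by 0.69 on the log2 scale (SE 0.21, adjusted p = 0.016), and *Zfp42*, the REX1 gene, was not called (-0.12, SE 0.06, adjusted p = 0.17). Of 13 general pluripotency factors, 8 fell and none rose, with a median of -0.46. Of 13 formative epiblast genes tested, 5 fell and 2 rose, with a median of -0.55. *Foxd3* (-2.66), *Otx2* (-1.28) and *Sox4* (-1.57) fell, while the DNA methyltransferase *Dnmt3b* rose from 6186, 6339, 6629 and 6449 to 8214, 8059, 8779 and 9190 (0.42, SE 0.11, adjusted p = 0.0062) and the carbonic anhydrase *Car4* rose by 1.31. The *Otx2* and *Foxd3* samples did not overlap between the times.

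RNA of the Nodal ligand, its co-receptor and its feedback inhibitors fell. Of 15 Nodal pathway genes tested, 7 fell, 8 were not called and none rose (1 with the replicate block), with a median of -0.46. Signalling itself was not measured. *Lefty2*, an extracellular inhibitor and a direct target of Nodal signalling, was at 1219, 1197, 1316 and 1270 at 16 h and at 162, 216, 75.1 and 94.6 at 24 h. The 16 h samples were within a narrow range and all 24 h samples were far below it (9.13-fold lower, log2 difference -3.30, SE 0.39, adjusted p = 3.4e-07). *Lefty1* went from 45.2, 48.9, 43.3 and 46.6 to 9.61, 12.5, 8.12 and 12.2 (-2.03, SE 0.32, adjusted p = 2.8e-05). *Nodal* itself fell from a mean of 205 to 83.5 (-1.30), and the co-receptor *Tdgf1* fell by 1.89 on the log2 scale. *Lefty1* and *Otx2* are also markers of anterior visceral endoderm, a list of which 2 of 11 tested genes rose and 5 fell, with a median of -0.55.

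Most feedback genes of the ERK pathway fell. Of 21 genes, 14 fell, *Il17rd* rose and 6 were not called, with a median of -0.80. *Dusp6*, a phosphatase of ERK, was at 572, 633, 549 and 571 and then at 214, 230, 99.5 and 83.2, with no overlap (3.71-fold lower, log2 difference -2.02, SE 0.46, adjusted p = 0.0016). *Egr1* was at 224, 262, 75.2 and 69.0 and then at 55.3, 68.2, 18.3 and 17.1 (-1.96, SE 0.40, adjusted p = 5.5e-04). Replicates 1 and 2 were above 3 and 4 at both times, and the fall was -1.96 in the first set and -1.97 in the second. *Il17rd*, a membrane antagonist of FGF signalling, rose from 169, 190, 175 and 192 to 398, 390, 329 and 327 (1.99-fold, log2 difference 0.99, SE 0.12, adjusted p = 4.6e-07).

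*Spry2* (-1.05), *Spry4* (-1.42), *Etv4* (-1.30) and *Etv5* (-1.12) were among the fallers. Of 20 immediate early and AP-1 genes, 9 fell and 1 rose (2 with the replicate block), with a median of -0.57. *Junb* (-1.47), *Nr4a1* (-1.24) and *Myc* (-1.16) fell. The receptors and ligands of the pathway split. *Fgf4*, the FGF made by Epi cells, went from 157, 164, 86.5 and 92.4 to 88.9, 68.2, 22.3 and 34.3 (-1.34, SE 0.29, adjusted p = 9.2e-04). These values overlapped because replicates 3 and 4 were lower than 1 and 2 at both times.

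*Fgfr2* rose from 407, 411, 714 and 690 to 1266, 1353, 1718 and 1668, with no overlap (log2 difference 1.47, SE 0.34, adjusted p = 0.0022), whereas *Fgfr1* fell from a mean of 444 to 263 (-0.74, adjusted p = 0.015). *Pdgfra*, the PDGF receptor of PrE, was at 5294, 5502, 5558 and 5677 and then at 6495, 6904, 8334 and 8314 (0.44, SE 0.14, adjusted p = 0.021). Of 14 PDGF and FGF receptors and ligands tested, 5 rose and 3 fell, with a median of 0.10.

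Ligands of the BMP family moved in opposite directions. *Bmp4* was at 162, 174, 109 and 105 at 16 h and at 22.8, 14.4, 14.2 and 14.7 at 24 h. The later samples were all below the earlier ones (8.31-fold lower, log2 difference -2.97, SE 0.33, adjusted p = 1.3e-07). *Bmp2* was at 11.3, 6.52, 8.65 and 10.4 and then at 28.8, 31.3, 71.1 and 90.5 (6.02-fold higher, log2 difference 2.32, SE 0.31, adjusted p = 2.3e-06). The BMP-binding protein *Bmper* rose from 20.9, 22.8, 53.3 and 55.2 to 102.1, 101.4, 262 and 289 (4.96-fold, adjusted p = 4.7e-04), and the BMP target *Id2* rose from a mean of 119 to 366 (3.08-fold). Of 17 BMP ligands and ID genes tested, 4 rose and 4 fell, with a median of 0.09. Of 18 Wnt target and feedback genes, 5 fell (8 with the replicate block) and none rose, with a median of -0.40, among them *Cdx1* (-2.51), *Notum* (-1.35) and *Axin2* (-0.61).

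Retinoic acid is cleared by CYP26 enzymes, and one of these fell while another rose. *Cyp26a1* was at 24.4, 21.2, 47.9 and 39.7 at 16 h and at 1.20, 1.25, 2.03 and 0.815 at 24 h. The later level rests on 5 reads in all, against 172 (log2 difference -3.83, SE 0.26, adjusted p = 9.8e-12), a ratio of 28.3 with an exact 95% interval of 11.9 to 88.4. The drop was passing, since the mean of *Cyp26a1* was 157 at 8 h, 143 at 48 h and 405 at 96 h. *Cyp26b1* was at 9.57, 7.33, 6.66 and 6.90 and then at 31.2, 43.8, 52.8 and 58.7 (6.12-fold higher, log2 difference 2.44, SE 0.50, adjusted p = 5.6e-04). Of 16 retinoid genes tested, 3 rose and 7 fell, with a median of -0.27. The retinaldehyde reductase *Dhrs3* (-2.58), the binding protein *Crabp1* (-1.98) and the receptor *Rarg* (-1.85) fell, and the synthetic enzymes *Aldh1a1* (1.46) and *Aldh1a3* (1.10) rose.

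Nutrient transport also turned over. *Tfrc*, the transferrin receptor for iron uptake, fell from 5334, 5239, 4376 and 4793 to 1137, 1235, 768 and 833, with no overlap (4.97-fold, log2 difference -2.34, SE 0.21, adjusted p = 1.5e-09). *Slc39a8*, which imports zinc, manganese and iron, rose from 6.96, 3.26, 10.7 and 11.2 to 50.4, 55.1, 77.2 and 75.02 (8.03-fold, log2 difference 2.95, SE 0.45, adjusted p = 1.3e-05). The metallothioneins *Mt1* (-1.26) and *Mt2* (-1.36), which bind zinc, fell. Of 19 nutrient and zinc transporters, 5 rose and 7 fell, with a median of 0.07.

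**Figure D4:**
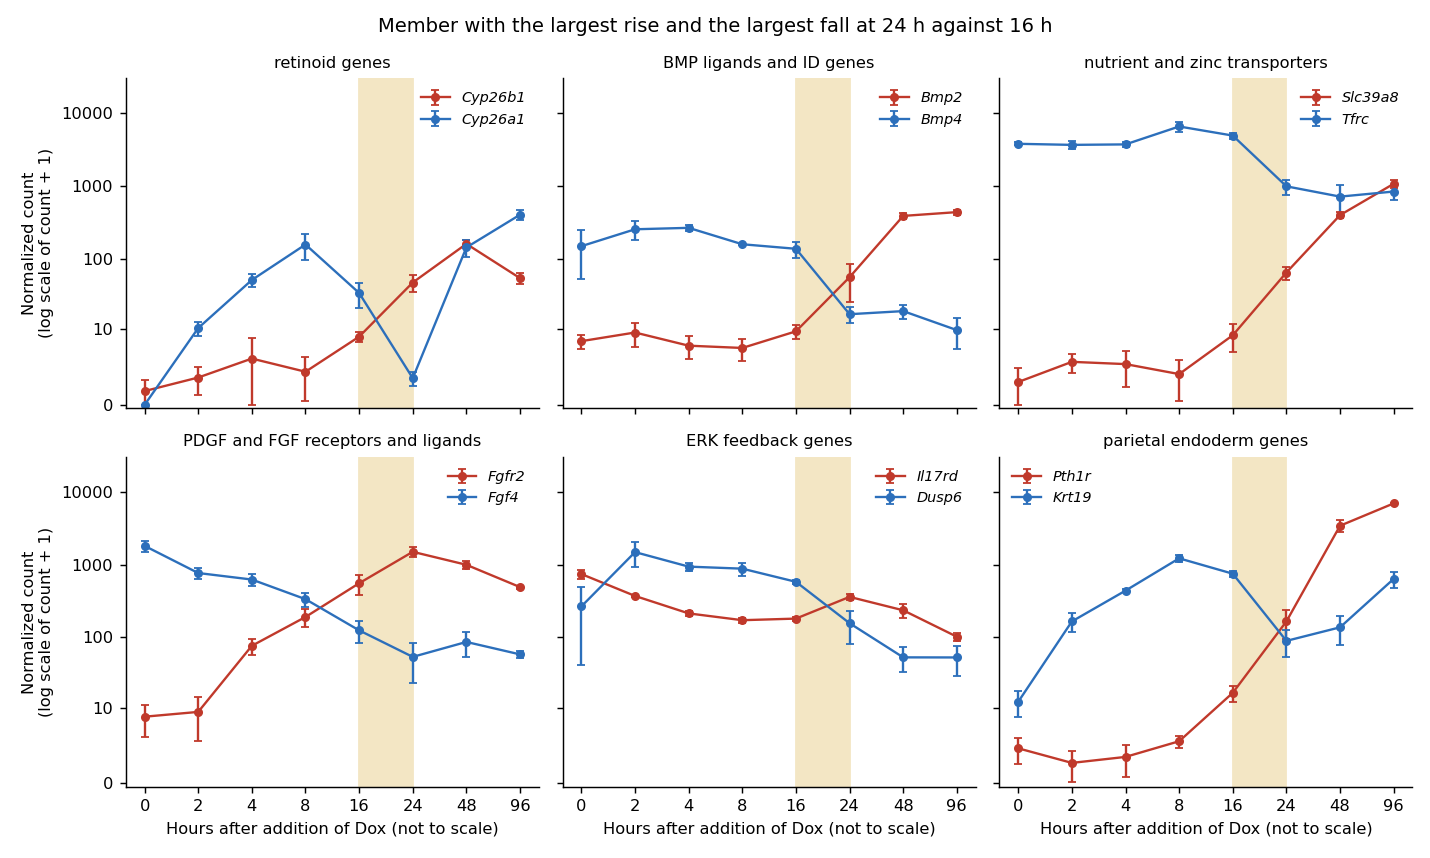
Mean normalized count (log scale of count + 1) at the 8 time points, with SD bars (n = 4, lower bars cut at 0), for the member with the largest rise and the one with the largest fall at 24 h in 6 lists. The pairs are *Cyp26b1* and *Cyp26a1*, *Bmp2* and *Bmp4*, *Slc39a8* and *Tfrc*, *Fgfr2* and *Fgf4*, *Il17rd* and *Dusp6*, *Pth1r* and *Krt19*. In the shaded band from 16 to 24 h, 1 line of each pair climbs and the other drops.

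Genes of the secretory pathway and the lysosome rose modestly and without a called fall. Of 25 lysosomal genes, 12 rose, with a median of 0.33. The protease *Ctsl* was at 1599, 1596, 1868 and 1865 and then at 3469, 3707, 3891 and 4124 (2.19-fold, log2 difference 1.13, SE 0.08, adjusted p = 3.3e-11), and the samples of each time were close together. *Ctsh* (1.08), *Lipa* (1.04), *Lgmn* (0.95) and *Npc1* (0.72) rose too. Of 24 ER folding and stress genes, 8 rose, with a median of 0.20. *Xbp1*, a transcription factor of secretory cells, went from 1064, 987, 1076 and 1019 to 2039, 2093, 2053 and 2104 (2.00-fold, log2 difference 1.00, SE 0.07, adjusted p = 7.8e-12). The difference was 1.01 in replicates 1 and 2 and 0.99 in replicates 3 and 4.

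Metabolic lists moved up by less than 2-fold in the median. Of 24 glycolysis genes, 9 rose (14 with the replicate block) and 2 fell, with a median of 0.33. *Pfkl*, which encodes a phosphofructokinase, rose from a mean of 1507 to 3127 (1.05), and *Ldhb* fell from 265, 246, 304 and 332 to 167, 131, 136 and 142 (-0.99, adjusted p = 6.8e-06). *Bnip3*, a target of hypoxia signalling, rose by 1.85 on the log2 scale with overlap, mainly in replicates 1 and 2 (2.55, beside 1.14 in replicates 3 and 4). Of 15 fatty acid synthesis genes, 7 rose and 2 fell, with a median of 0.30. Of 23 cholesterol synthesis genes tested, 6 rose and none fell, with a median of 0.16. The desaturases *Fads1* (0.83) and *Scd2* (0.78) rose, and the carboxylase *Acacb* fell (-1.09).

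Of 20 G1 cyclins and CDK inhibitors, 2 rose and 2 fell (4 with the replicate block), with a median of 0.09. Each is 10%, below the 13.3% and 14.8% of all genes. *Ccnd1* fell from 1242, 1197, 1024 and 985 to 540, 535, 447 and 425 (2.28-fold, log2 difference -1.19, SE 0.13, adjusted p = 9.7e-08), and *Cdk6* fell by 0.90, while *Ccnd2* rose from a low mean of 3.37 to 11.8 (1.37, adjusted p = 0.066). *Cdkn1b*, the inhibitor p27, was called higher (0.36, adjusted p = 0.054), but the times overlapped and the difference was 0.72 in replicates 1 and 2 and 0.00 in replicates 3 and 4. That call was lost without replicate 1 or 2 of either time (0.27 to 0.32). Of 17 MYC network genes, 3 rose and 3 fell, 17.65% each and near the shares of all genes, with a median of -0.03. Of 16 SRF and YAP target genes tested, 2 rose and 8 fell, with a median of -0.38. *Myl9* (-2.07), *Cnn2* (-1.14), *Ctgf* (-1.09) and *Flna* (-0.97) fell, and *Cyr61*, of the same family as *Ctgf*, rose from 80.9, 84.7, 123 and 117 to 174, 229, 238 and 210 (1.08, adjusted p = 2.3e-04).

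Among chromatin regulators, *Dppa3* was the one gene of the lists to fall past 4-fold in its means. Of 28 Polycomb genes, 2 rose (4 with the replicate block) and 7 fell, with a median of -0.01. *Ezh1* rose from 266, 244, 357 and 341 to 578, 613, 636 and 633 (1.04, SE 0.15, adjusted p = 6e-06), and *Epop*, a Polycomb subunit of ES cells, fell from 3216, 3349, 3478 and 3392 to 1947, 1988, 2360 and 2398 (-0.63, adjusted p = 3.6e-07). Of 13 DNA methylation genes, 2 rose and 4 fell, with a median of -0.08, and besides *Dppa3* and *Dnmt3b* these included *Tet1* (-0.69) and *Uhrf1* (-0.35). Of 25 imprinted genes tested, 5 rose and 3 fell, with a median of 0.08. These are 20% and 12%, near the 13.3% and 14.8% of all genes. *H19*, a non-coding RNA, rose from 164, 150, 156 and 150 to 692, 658, 571 and 560 (1.99, SE 0.34, adjusted p = 7.2e-05), and the X-linked homeobox gene *Rhox5* rose by 1.49. *Plagl1* fell by 1.27.

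The lists of housekeeping genes had fewer calls than the 13.3% and 14.8% of all genes. Of 83 cytosolic ribosomal protein genes, 8 fell and none rose, with a median of -0.03. The strongest of these was *Rpl24* (-1.14), which lay at a mean of only 21.6 at 16 h. Ribosomal protein genes have many near-identical copies in the genome, so single values of such genes are uncertain. Of 76 nuclear OXPHOS genes, 3 rose (10 with the replicate block) and 4 fell, with a median of 0.02, and none of the 13 mitochondrially encoded genes was called. Of 8 core histone genes that passed the filter out of 67, 1 rose, *Hist1h2bc* (0.55), and the median was 0.17. The call of *Hist1h2bc* was lost without 16 h replicate 1 or 3 or 24 h replicate 3 or 4 (0.48 to 0.51). Histone RNA mostly lacks poly(A), which the libraries select. Of 17 HOX genes tested, 2 fell, *Hoxc4* (-0.69; -0.57 and not called without 24 h replicate 4) and *Hoxc5* (-1.20), with a median of -0.18. In 16 cases a list had no call by limma in 1 direction, and over these cases 1 member passed an unadjusted p of 0.05 in that direction and voom on the recovered reads called 2. For the mitochondrially encoded genes both counts were 0.

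**Figure D5:**
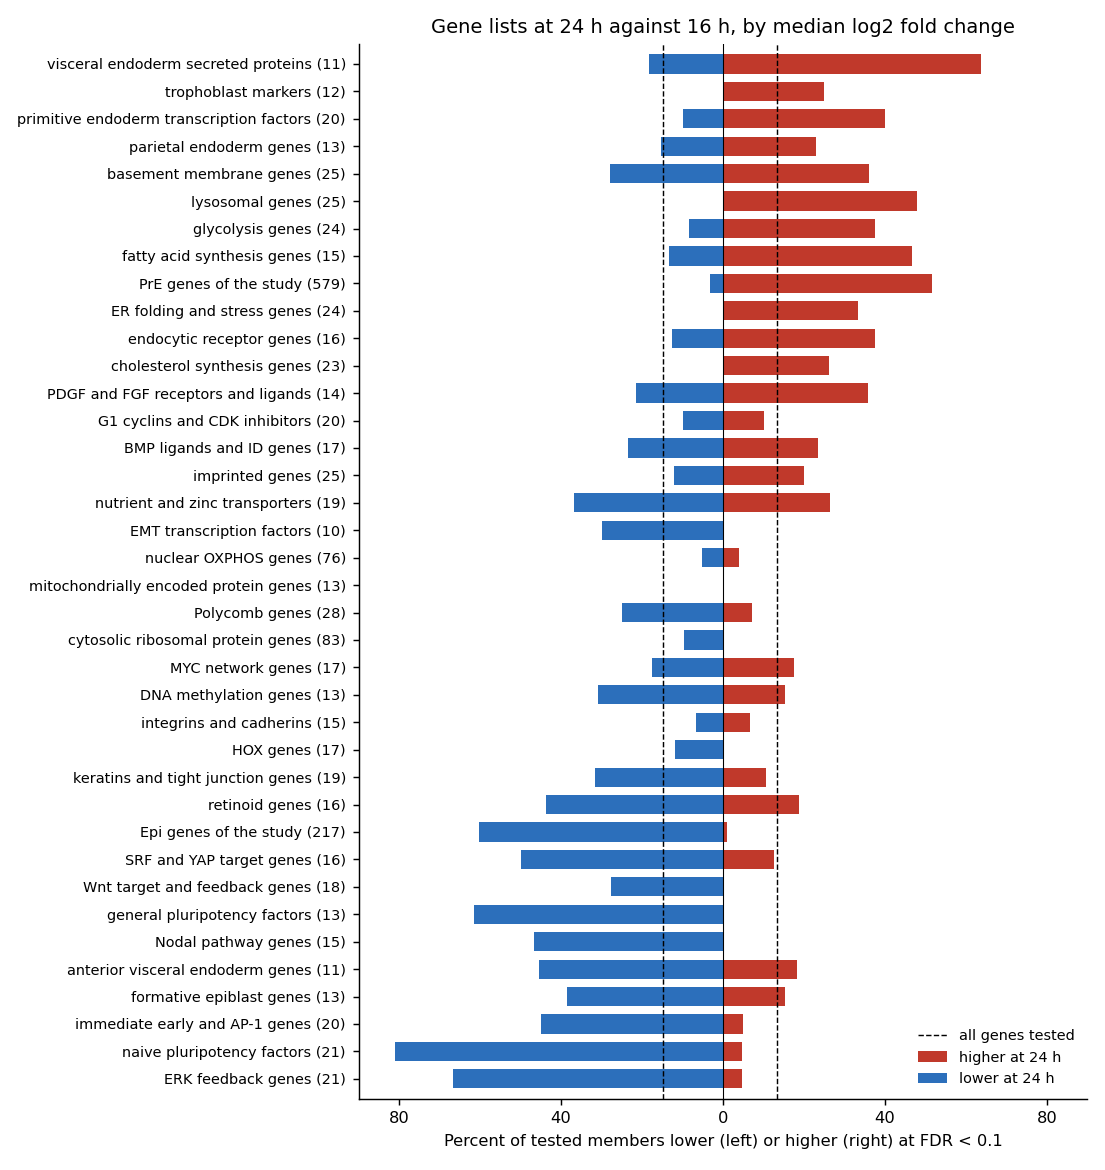
Percent of tested members that were higher and lower at 24 h (adjusted p below 0.1) for the 38 lists with at least 10 genes tested, with the number tested in parentheses. Dashed lines mark 13.3% and 14.8%, the shares of all 15227 genes. Lysosomal, endocytic and ER genes lean to higher, and naive pluripotency, ERK feedback and Nodal genes to lower.

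The study gives its own lists of PrE and Epi genes. Of 579 PrE genes tested, 299 rose and 18 fell, with a median of 0.28, and of 217 Epi genes, 131 fell and 2 rose, with a median of -0.38. With the replicate block, 33 PrE genes fell and 7 Epi genes rose. At 4-fold these counts were 15 and 1 for PrE genes and 0 and 7 for Epi genes. The study drew these lists from published single-cell data of blastocysts, not from these samples. It already reported that Epi transcripts decreased and PrE transcripts increased over this time course, so the directions are not new evidence.

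Markers of other cells that the cultures could hold also moved. Of 12 trophoblast markers tested, 3 rose (5 with the replicate block) and none fell, with a median of 0.62, and their summed normalized count over the 16 listed genes was 1134 to 1613 at 16 h and 2423 to 2677 at 24 h. Most of that sum's increase was *Fgfr2*, the FGF receptor described above, with means of 556 and 1501. The other risers were *Ascl2* (1.27) and *Hand1*, and the last was at 3.48, 1.63, 0 and 2.59 and then at 13.2, 8.76, 16.3 and 10.6 (2.34, SE 0.49, adjusted p = 7.8e-04). *Cdx2*, a defining trophoblast factor, had means of 4.37 and 4.18. Of 8 mesoderm markers tested, 2 rose and 3 fell, with a sum of 156 to 319 at 16 h and 126 to 189 at 24 h, and *T* had means of 3.11 and 0.974.

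Of 6 neural markers tested, 4 fell and none rose, among them *Olig2*, from 60.01, 37.5, 42.6 and 58.7 to 9.61, 10.01, 0 and 3.26 (-3.40, SE 0.46, adjusted p = 2.7e-06), and their sum was 483 to 639 at 16 h and 246 to 394 at 24 h. None of the 4 fibroblast and feeder markers tested was called by limma or voom, none passed an unadjusted p of 0.05, and their summed count was 75.7 to 169 at 16 h and 69.7 to 95.1 at 24 h. The part of such cells in the results above was not tested.

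The genes that changed 4-fold were followed in contrasts between time points that share no sample with 16 and 24 h. In 48 against 8 h, where 5.85% of all genes were higher and 6.83% lower at 4-fold, 77 of the 80 risers were higher and none was lower, and 97 of the 111 fallers were lower and none was higher. In 96 against 0 h, where 9.28% of all genes were higher and 10.3% lower, 71 of the risers were higher and 1 was lower, and 59 of the fallers were lower and 5 higher. In 8 against 0 h, where 3.4% were higher and 1.31% lower, 6 of the risers were higher and 2 lower, and 42 of the fallers were higher and 10 lower. Most risers thus did not meet the 4-fold call at 8 h, while 42 of the 111 fallers had been induced at 4-fold by then.

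The 42 fallers induced by 8 h include *Elovl3*, *Grm6*, *Myom3* and *Ptafr*. Across them, the median of the mean normalized count was 2.54, 12.8, 53.5, 66.1, 30.4, 4.27, 2.76 and 3.75 in the order of the time points (0, 2, 4, 8, 16, 24, 48 and 96 h). The median at 24 h was thus within 2-fold of that at 0 h, although single genes such as *Ptafr*, with means of 0.202 at 0 h and 39.9 at 24 h, stayed higher. The 10 fallers already lower at 8 h fell steadily, with a median of 404 before the pulse, then 45.4 by 8 h, 20.4 by 16 h and 3.77 by 24 h. The 72 risers that did not meet the 4-fold call in 8 against 0 h, some of which may have changed less, had a median of 2.05 before the pulse. Their medians were 2.55, 7.28, 48.5 and 155.7 in the samples of 8, 16, 24 and 48 h. The highest mean fell on 48 h for 44 of the risers, on 96 h for 30 and on 24 h itself for 5. Among the fallers, 43 peaked at 8 h, 25 were highest before the pulse, and 18 and 14 peaked at 2 and 4 h.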

How the data were processed

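The authors deposited 1 table of log2 values from the variance stabilizing transformation of DESeq2, for 32 samples, which is the log2 unit used here. Per their processing notes and methods, reads were checked with FastQC 0.11.8, trimmed with cutadapt 2.7, aligned to GRCm38.p6 with HISAT2 2.1.0 and counted per gene with featureCounts of Subread 1.6.4. Libraries were stranded, poly(A)-selected and single-end, and the strand setting of the counting is not given in the sources used here. The transformation was undone to give normalized counts, and division by the value of 1 read in a sample returned whole numbers for 100.0% of values (tolerance 0.01). Reads per sample ranged from 3190108 to 12301732 over the series, and intervals from reads cover counting error only. The values are not raw counts, so limma 3.58.1 (R 4.3.3; tables in Python 3.11.15) was used with a trended prior on log2(normalized count + 1) over all 32 samples, 1 mean per time point. Genes were kept if 4 or more samples reached a normalized count of 10, and p-values were adjusted by Benjamini-Hochberg over 15227 genes. The pseudocount understates changes of low genes.

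The 42 gene lists, 2 of them from the study, and the rules were chosen with earlier results of these data known. The genes named by rule were the 12 largest rises and 12 largest falls past 4-fold among non-overlapping genes whose higher mean was 100 or more; core factors; the largest riser and faller of each list at a mean of at least 20; and list members at 4-fold where these were 5 or fewer in a direction, 104 in all. Other members are examples named after their values were seen. Some genes are not reported here. Promoters are from RefSeq, and gene coordinates from GENCODE M21.

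Replicate numbers are shared by the time points. The deviations of same-numbered samples at 16 and 24 h from their group means correlated at 0.211 to 0.278, above 0.1 in all 4 pairs. The other number of the same set gave 0.229 to 0.291, so the pairing marks the set (1 and 2, 3 and 4). On simulated data with 200 changed genes out of 15227 in this comparison, 198 were recovered, with 25 false calls, none at 4-fold. The simulated reads had the same dispersion for all genes and no difference between the replicate sets. The changed genes were not low at 16 h and moved by at least 2.5 on the log2 scale. The result therefore does not carry over to low genes or to samples whose sets differ. Alternatives were other pseudocounts, filters, scalings, voom on the recovered reads, a replicate block, a set term, the 8 samples alone, each set alone, an FDR of 0.05, the deposited values and leaving out each library.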

Additional observations from a re-analysis of the deposited data

Results flagged for a closer look

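In 5 of 208 groups of 4 samples, 1 value of a named gene stood apart from the other 3 by Dixon's criterion, which chance alone meets in about 1 in 20 groups. At 24 h, *Myom3* was highest in replicate 4 at 8.97, above 6.26, and *Bmp4* was highest in replicate 1 at 22.8, above 14.7. *Ptafr* was lowest in replicate 1 at 24.0, below 43.2. *Fgb* was highest in replicate 4 at 8.97 at 24 h, and *Tfec* was highest in replicate 3 at 1.33 at 16 h, where the other samples had no read. In none of these genes did the times overlap.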

How the results depend on the processing

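The counts at 4-fold depended on how low values were treated. The 80 rises became 45 with a pseudocount of 4, 44 with a filter on a mean of 50 and 42 on the deposited values, and the 111 falls became 39, 45 and 40. The falls became 189 with a pseudocount of 0.5 and 249 in replicates 3 and 4 alone. Leaving out 1 library gave 74 to 91 rises and 96 to 154 falls at 4-fold, and 1676 to 1813 rises and 1835 to 2093 falls at an adjusted p below 0.1. With the replicate block, 2560 genes rose and 2851 fell, and the counts at 4-fold stayed at 80 and 111. In this balanced design the block cannot change a log2 difference, so the unchanged counts are not separate support. Of the 104 named genes, 96 were called in the main fit, and each of these kept its call with the block. Of 2168 values of named genes under the alternatives, none changed sign past the threshold, 36 lost a call and 13 gained one. Of 96 called genes, 87 never lost the call, and it was lost at some setting by *Atp5s*, *Cdkn1b*, *Gata4*, *Hhex*, *Hist1h2bc*, *Hoxc4*, *Itga3*, *Klf4* and *Lmo2*. In the gene lists, counts that moved by over 1.5 times with the block are given beside the lists. With voom these were 1 rise of Wnt and 1 of EMT genes in place of 0, 2 rises of integrins and cadherins in place of 1, 1 fall of parietal endoderm genes in place of 2, and 1 rise of G1 genes and of mesoderm markers in place of 2. Upper-quartile scaling left 1 rise of SRF and YAP targets in place of 2. The causes were not tested. Genes with 3 reads or fewer on one side limit the precision of their fold.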
